A study of Mus musculus with 16 samples.

Results

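Opioid peptides are cut from larger precursor proteins that 4 genes encode in the mouse, and these genes were followed across 16 polyA RNA libraries of the periaqueductal gray. They are Penk, Pdyn, Pnoc and Pomc. They were picked by their symbols, with earlier results of these data known. All 4 are among the 38924 genes of the files. All 4 passed the filter on low counts, which left 18111 genes to be tested. The libraries fell into 4 groups of 4, all from male mice. The groups were RGSz1 KO given morphine (KO morphine), RGSz1 KO naive (KO naive), wild type given morphine (WT morphine) and wild type naive (WT naive). RGSz1 is the product of Rgs20, a protein that shortens signalling by G proteins, and the series asks how it and tolerance to morphine affect expression in this region. Each library pooled 4 punches (14 gauge) from 2 animals. The labels give no dose, duration, age or vehicle group, so morphine and the handling that went with it cannot be told apart.

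The precursors are cut by convertases inside secretory vesicles, mostly at pairs of basic residues, and the peptides are released to act on opioid receptors. Penk yields mainly Met- and Leu-enkephalin, which act on delta and mu receptors. Pdyn yields the dynorphins, the main agonists of the kappa receptor. Pomc yields beta-endorphin together with ACTH and melanocortins. Pnoc yields nociceptin, whose receptor Oprl1 resembles the opioid receptors but has its own ligand. The periaqueductal gray is a midbrain region that takes part in descending control of pain, and opioid peptides and opioid drugs act there.

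The 4 precursors differ in how many opioid peptides they carry, which their coding sequences show. The shared opioid core is Tyr-Gly-Gly-Phe, and the residue after it makes the Met or the Leu type. In the GENCODE M21 transcripts on GRCm38, the 804 coding bases of Penk held 7 in-frame copies of this core, 6 followed by a Met codon and 1 by a Leu codon. The 744 coding bases of Pdyn held 3 copies, all followed by a Leu codon. The 705 coding bases of Pomc held 1 copy, followed by a Met codon. The 636 coding bases of Pnoc held none, and held instead 1 Phe-Gly-Gly-Phe, the start of nociceptin. Each of these 12 cores came right after a pair of codons for basic residues. The sequences are shown to let the cores and their flanks be compared, 5′ to 3′ on the gene's strand, with the 4 core codons in capitals.
Penk, copy 1 (Met type), chr4:4134325-4134357, minus strand: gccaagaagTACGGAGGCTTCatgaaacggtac
Penk, copy 6 (Leu type), chr4:4133932-4133964, minus strand: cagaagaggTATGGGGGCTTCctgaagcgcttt
Pdyn, copy 1, chr2:129688229-129688261, minus strand: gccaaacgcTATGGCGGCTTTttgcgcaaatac
Pdyn, copy 3, chr2:129688064-129688096, minus strand: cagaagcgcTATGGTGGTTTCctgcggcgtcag
Pnoc, chr14:65404869-65404901, minus strand: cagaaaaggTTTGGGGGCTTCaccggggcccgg
Pomc, chr12:3960364-3960396, plus strand: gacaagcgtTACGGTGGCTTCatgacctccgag
Each of these windows lies within 1 coding exon. The genes themselves lie at chr4:4133531-4138819 (Penk, ENSMUSG00000045573.9), chr2:129686565-129699844 (Pdyn, ENSMUSG00000027400.5), chr14:65400673-65425472 (Pnoc, ENSMUSG00000045731.5) and chr12:3954951-3960642 (Pomc, ENSMUSG00000020660.5). Penk overlaps A830012C17Rik on the opposite strand, and the library kit does not mark strand. That gene had 0 to 4 counts in any library, against 1905 to 5207 counts of Penk. No other annotated gene overlaps the precursors.

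The libraries held 19.1 to 55.0 M counts over genes (M, mega), and CPM are counts per M counts of the scaled library. Rgs20 overlapped between the labels, at 11.4 to 14.0 CPM in the 8 libraries labelled KO, against 11.6 to 14.4 CPM in the 8 labelled WT. The genotype groups are therefore named by their labels, and gene-level counts do not show which exons were read. Midbrain transcription factors were present, with Gata3 at a mean of 22.9 CPM and Tal1 at 30.0 CPM. The forebrain factor Emx1 was near 0, at a mean of 0.38 CPM. Agrp, a marker of the hypothalamic arcuate nucleus where Pomc neurons lie, averaged 0.64 CPM. The pituitary hormone gene Gh ranged from 0.197 to 19.0 CPM across libraries. The replicates were labelled as biological, and every pair of replicates differed beyond sampling noise (chi-square per gene of at least 3.58).

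Scaled to exon length, Penk was the main precursor transcript in every library. Its level averaged 59.5 CPM per kilobase of exon (range 49.4 to 72.3 over 16 libraries), above 95.5% of the genes tested. Pnoc averaged 8.76 (6.19 to 11.5), Pdyn 2.40 (1.11 to 5.09) and Pomc 1.12 (0.835 to 1.38) CPM per kilobase. The order Penk, Pnoc, Pdyn held in 16 of 16 libraries. Pdyn exceeded Pomc in 15 of 16, and these neighbours overlapped in range. Penk made up 82.9 ± 2.00% of the summed length-scaled level in KO morphine, 82.1 ± 2.09% in KO naive, 83.2 ± 1.32% in WT morphine and 83.4 ± 4.35% in WT naive libraries (SD, n = 4 each). The share of Pdyn was 4.65 ± 0.89% in KO morphine and 2.48 ± 0.69% in KO naive libraries. It was 3.39 ± 0.56% in WT morphine and 2.49 ± 0.79% in WT naive libraries. The 4 genes together came to 80.3 ± 7.39 CPM per kilobase in KO morphine and 63.3 ± 4.45 in KO naive libraries, which did not overlap. They came to 75.1 ± 2.41 in WT morphine and 68.2 ± 4.25 in WT naive libraries, which overlapped. Most of this sum was Penk, so it is not a result separate from that of Penk.

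**Figure D1:**
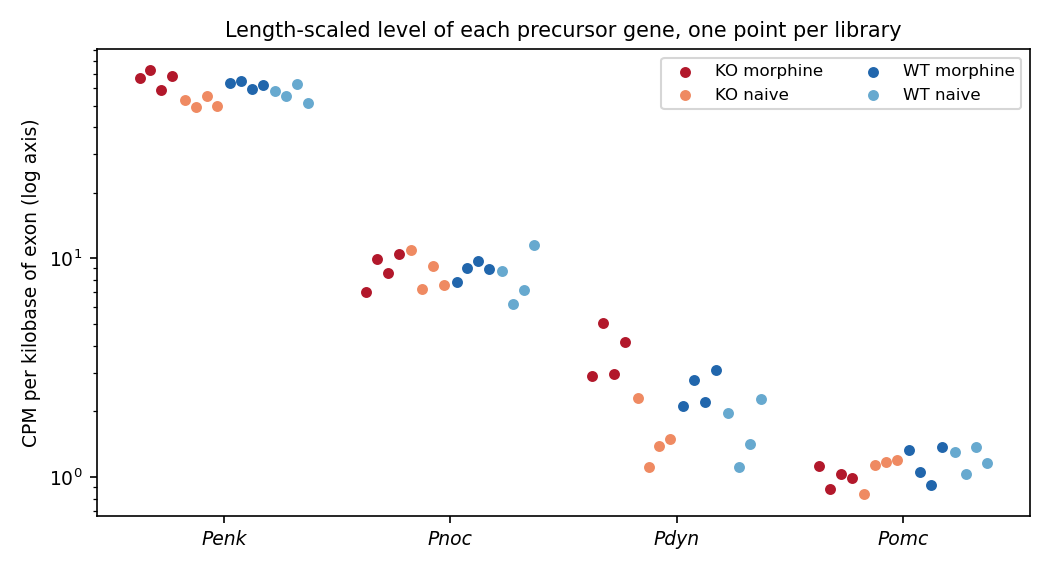
Length-scaled level of each precursor gene (CPM per kilobase of exon, log axis), 1 point per library, coloured by group. Penk lies at 49.4 to 72.3, well above Pnoc at 6.19 to 11.5, while the Pdyn and Pomc points overlap near 1.

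Morphine was first compared with naive in the libraries labelled KO. Penk and Pdyn rose, and Pnoc and Pomc did not pass the test. In that comparison 2 of the 4 genes passed, where 11.5% of all genes tested passed in either direction. Penk, the enkephalin precursor, had 109, 118, 95.8 and 112 CPM in KO morphine libraries 1 to 4, against 86.5, 80.7, 90.7 and 81.3 CPM in KO naive libraries 1 to 4. Every KO morphine library was above every KO naive library, but only narrowly (lowest 95.8 CPM against highest 90.7 CPM). The log2 fold change was 0.36 ± 0.06 (SE), a 1.28-fold rise (95% interval 1.17 to 1.41). Its adjusted p was 0.00241 (edgeR's quasi-likelihood test, Benjamini-Hochberg over all genes). Penk ranked 264 of 18111 genes by p.

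Pdyn, the dynorphin precursor, had 8.41, 14.7, 8.60 and 11.9 CPM in KO morphine libraries 1 to 4, against 6.64, 3.23, 4.03 and 4.32 CPM in KO naive libraries 1 to 4. These groups did not overlap either, with the lowest KO morphine library at 8.41 CPM and the highest KO naive library at 6.64 CPM. The share of all genes tested whose groups did not overlap in this comparison is not given here. Non-overlap is therefore a description of the values of Penk and Pdyn. The log2 fold change was 1.24 ± 0.27 (SE), a 2.36-fold rise (95% interval 1.59 to 3.51), and its adjusted p in the same edgeR test was 0.00949. The Pdyn values rest on 112 to 463 counts a library. In bulk tissue, more cells expressing a gene and more RNA per cell cannot be told apart.

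Markers of serotonin neurons moved in the same comparison. The neighbouring dorsal raphe holds these neurons. Of the 10 listed markers, 10 were higher in KO morphine than in KO naive libraries, with a median log2 fold change of 1.95, and no marker was at 0 in every library. Their summed level ranged from 576 to 1776 CPM in KO morphine libraries, against 145 to 389 CPM in KO naive libraries. Oligodendrocyte markers ran the other way, with 8 of 11 lower and a summed level of 7152 to 9105 CPM in KO morphine libraries, against 10302 to 11869 CPM in KO naive libraries. With the serotonin marker score of each library in the fit, the log2 fold change of Penk was 0.34 ± 0.10 (SE) and that of Pdyn 0.37 ± 0.28. The adjusted p-values were then 0.102 for Penk and 0.542 for Pdyn (edgeR), so neither passed. The size of the Penk difference was nearly the same in that fit, while that of Pdyn was 0.37, against 1.24 without the score. Over all genes, 304 passed with that score in the fit and 2082 without it. The score itself differed between the groups, so the part it shares with morphine cannot be told apart. Without the score, 4612 of the 18111 genes tested had an unadjusted p under 0.05 in KO morphine against KO naive libraries. Of 4 noradrenergic markers tested, 0 passed in edgeR though 4 had an unadjusted p under 0.05, with a median log2 fold change of 4.50. Their score ran from -1.62 to 3.74 in KO morphine libraries, highest in library 2, against -1.77 to -0.80 in KO naive libraries, so the groups overlapped. Of 3 cholinergic markers tested 0 passed in edgeR though 3 had an unadjusted p under 0.05 (median 2.50), and Slc17a8, 1 of 3 glutamatergic markers, was higher by 3.31. Endothelial markers were lower in 3 of 7 (median -0.34), with a summed level of 124 to 174 CPM in KO morphine libraries, against 178 to 203 CPM in KO naive libraries. Striatal projection neurons are rich in Penk, and 2 of 6 of their markers were higher, among them Rgs9 by 0.27, while the defining marker Drd1 averaged 2.56 CPM over the 16 libraries. The part of these cells in the precursor results was not tested.

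Pnoc, the nociceptin precursor, had 15.1, 21.4, 18.5 and 22.7 CPM in KO morphine libraries, against 23.5, 15.6, 19.9 and 16.4 CPM in KO naive libraries. The groups overlapped over most of their range. Its log2 fold change was 0.04 ± 0.19 (SE), with a 95% interval of -0.37 to 0.46, which spans 0.77-fold to 1.37-fold. Pomc, the precursor of beta-endorphin, had 1.49, 1.16, 1.36 and 1.31 CPM in KO morphine libraries, against 1.10, 1.50, 1.55 and 1.58 CPM in KO naive libraries. These groups overlapped, and at 22 to 72 counts a library the log2 fold change of -0.09 had an interval of -0.44 to 0.27.

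**Figure D2:**
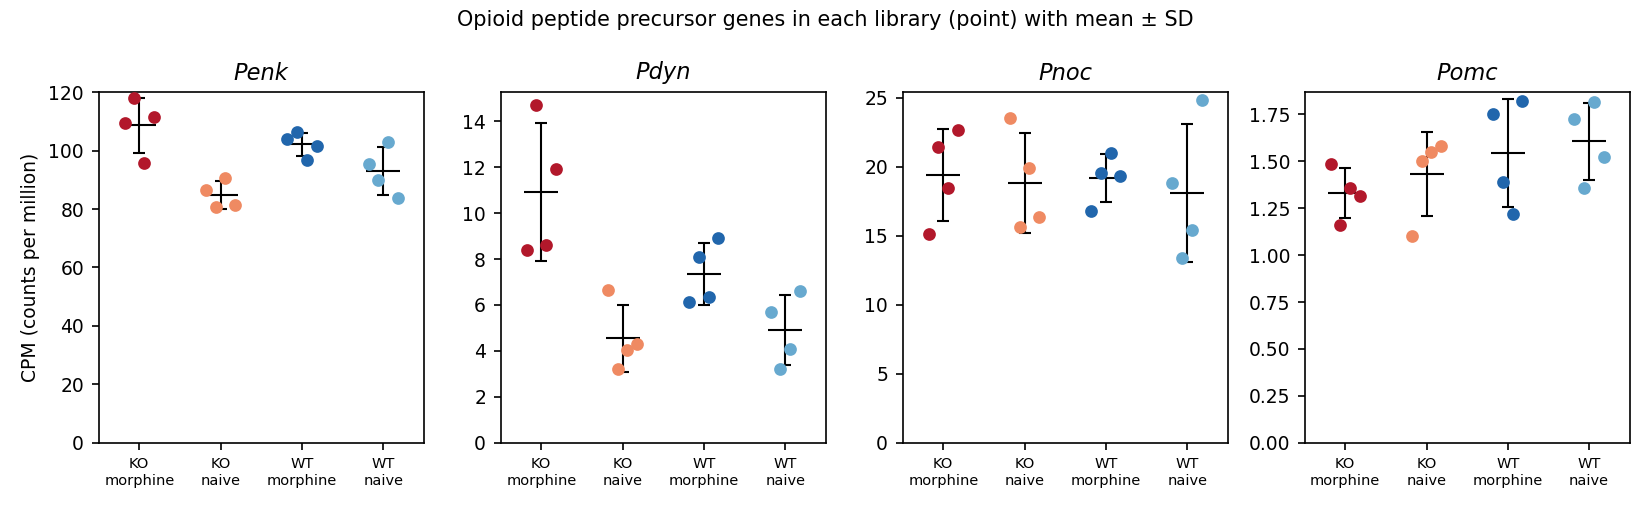
CPM of each precursor gene in every library (points), with the group mean and SD (black), for KO morphine, KO naive, WT morphine and WT naive. For Penk and Pdyn the KO morphine points all lie above the KO naive points, and for Pnoc and Pomc the groups overlap.

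In wild type libraries no precursor gene passed the test for morphine, in a comparison where edgeR's quasi-likelihood test called 4.41% of all genes. At an unadjusted p under 0.05, 1 of the 4 precursors would have passed, which was Pdyn. So would 3637 of the 18111 genes tested, so this count does not set the precursors apart. DESeq2 and limma-voom called 0 of the 4 precursors as well. Penk had 104, 106, 96.8 and 102 CPM in WT morphine libraries 1 to 4, against 95.4, 89.9, 103 and 83.7 CPM in WT naive libraries 1 to 4. One WT naive library lay among the WT morphine libraries. The log2 fold change was 0.13 ± 0.06 (SE), with an adjusted p of 0.249 (edgeR). Pdyn had 6.13, 8.07, 6.35 and 8.90 CPM in WT morphine libraries, against 5.71, 3.20, 4.09 and 6.59 CPM in WT naive libraries. All 4 WT morphine libraries were above the WT naive median, and the groups overlapped at their edges. The log2 fold change was 0.60 ± 0.27 (SE), a 1.52-fold difference with an interval of 1.02 to 2.25, and the adjusted p was 0.225 (edgeR). No serotonin marker passed in edgeR in this comparison (0 of 10, 0 at an unadjusted p under 0.05), with a summed level of 716 to 934 CPM in WT morphine and 252 to 899 CPM in WT naive libraries.

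Pnoc had 16.8, 19.6, 21.0 and 19.3 CPM in WT morphine libraries, against 18.9, 13.4, 15.4 and 24.8 CPM in WT naive libraries. The WT naive libraries spanned a wider range than the WT morphine libraries and enclosed them. Its log2 fold change was 0.09 ± 0.19. Pomc had 1.75, 1.39, 1.22 and 1.82 CPM in WT morphine libraries, against 1.73, 1.36, 1.82 and 1.52 CPM in WT naive libraries. These too overlapped throughout, with a log2 fold change of -0.06 ± 0.16.

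Whether the morphine difference itself depended on the genotype label was tested by the interaction. For Penk the KO difference exceeded the WT difference by 0.23 ± 0.09 on the log2 scale (p of 0.0242 before and 0.338 after edgeR's adjustment over all genes). For Pdyn it exceeded it by 0.64 ± 0.37 (adjusted p of 0.518, edgeR). No gene of the 18111 passed the interaction test by edgeR (0%) and none by limma-voom, while 2200 had an unadjusted p under 0.05 and DESeq2 called 107. So the changes that passed with the KO label are not shown to differ from those with the WT label. Averaged over both labels, where edgeR's test called 17.1% of all genes, 2 of the 4 precursors passed. Morphine libraries were higher than naive libraries by 0.25 ± 0.05 for Penk (adjusted p of 0.00145, edgeR) and by 0.92 ± 0.19 for Pdyn (adjusted p of 0.00446, edgeR). In this average 9 of 10 serotonin markers were higher, with a median log2 fold change of 1.26. With their score in the fit neither precursor passed, at 0.23 for Penk (adjusted p of 0.103, edgeR) and 0.33 for Pdyn (adjusted p of 0.426). On the same average without the score Pnoc differed by 0.07 ± 0.14 and Pomc by -0.07 ± 0.12.

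Between genotype labels the precursors did not pass the test. Among naive libraries edgeR called 0 of the 4 precursors and 0.906% of all genes, with no precursor at an unadjusted p under 0.05 and 0 called by DESeq2 or limma-voom. Penk was 0.13 ± 0.06 lower on the log2 scale in KO naive than in WT naive libraries (adjusted p of 0.391), and Pdyn differed by -0.08 ± 0.27. Among morphine libraries edgeR called 0 of the 4 and 0.53% of all genes, with 1 precursor at an unadjusted p under 0.05 and 0 called by DESeq2 or limma-voom. That was Pdyn, at a log2 difference of 0.57 ± 0.26 for KO morphine against WT morphine (adjusted p of 0.511, edgeR), with 4 of 4 KO morphine libraries above the WT morphine median. Of the 18111 genes tested, 1745 had an unadjusted p under 0.05 among morphine libraries. Averaged over treatments, 0 of the 4 passed and 1.53% of all genes did, and the differences ran from -0.18 ± 0.12 for Pomc to 0.25 ± 0.19 for Pdyn. These comparisons rest on genotype labels between which Rgs20 counts overlapped.

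**Figure D3:**
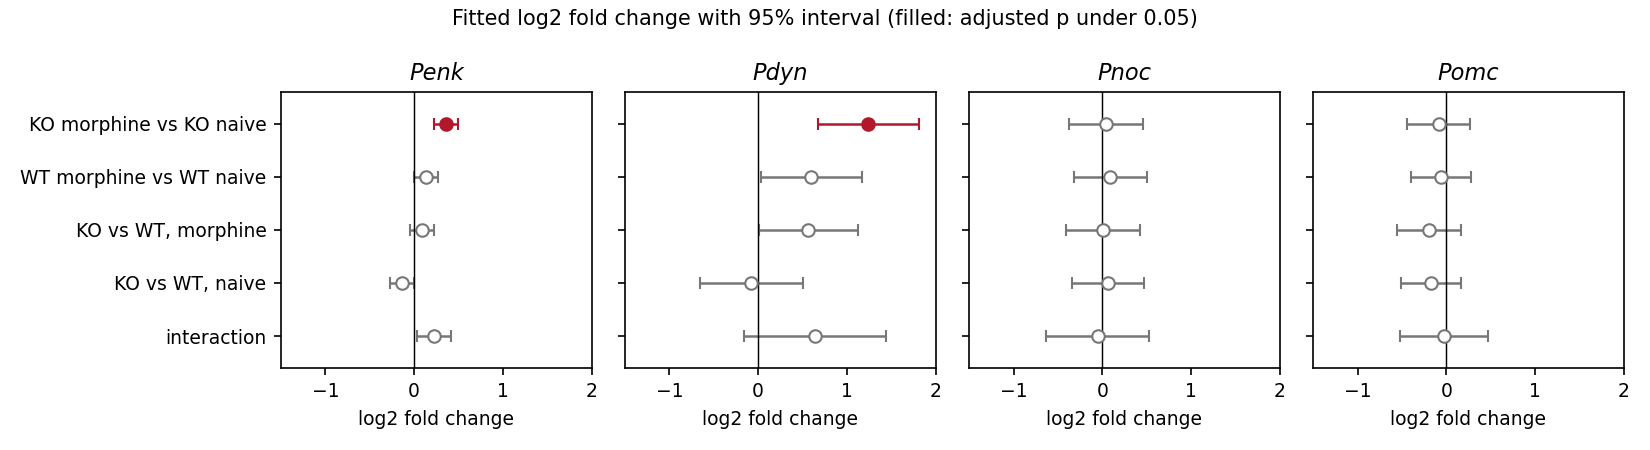
Fitted log2 fold change with its 95% interval for each precursor gene in 5 comparisons, filled red where the adjusted p was under 0.05. Penk at 0.36 and Pdyn at 1.24 in KO morphine against KO naive are the filled points.

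Pdyn and Pnoc varied together from library to library. After subtracting group means, Pearson's r between them was 0.836 and Spearman's rho 0.865 over 16 libraries (permutation p of 0.00123 for each, permuting libraries within groups, and 0.0123 after adjustment over 10 relations). Without the 2 libraries farthest out on Pdyn, r was 0.757. For Penk, r was 0.213 to Pdyn (permutation p of 0.511, adjusted 0.846) and -0.028 to Pnoc (permutation p of 0.936, adjusted 0.936). Without the 2 libraries farthest out on Penk these were 0.394 and 0.305, so the sign for Pnoc rested on those libraries. Between Pdyn and the serotonin score r was 0.719 and rho was 0.732 (permutation p of 0.0169 and 0.0156, adjusted 0.0843 and 0.0781), a relation that did not pass the adjustment. Without the 2 farthest libraries that r was 0.743. Penk had r of 0.088 to the same score (permutation p of 0.798, adjusted 0.887). The other 5 relations had adjusted permutation p-values of 0.156 or more. Pdyn and Pnoc also varied with other scores within groups, which were not tested. For GABAergic neuron markers r was 0.555 to Pdyn and 0.771 to Pnoc. For granin and dense core vesicle genes it was 0.803 and 0.858, and for microglia markers -0.609 and -0.610. For striatal projection neuron markers it was -0.106 and 0.015.

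Pdyn was also read relative to Pnoc within each library. Per kilobase, Pdyn came to 41.6, 51.3, 34.8 and 39.4% of Pnoc in KO morphine libraries 1 to 4, against 21.1, 15.4, 15.2 and 19.7% in KO naive libraries 1 to 4. It came to 27.3, 30.8, 22.5 and 34.4% in WT morphine libraries, against 22.6, 17.9, 19.8 and 19.8% in WT naive libraries. The KO morphine libraries were above those of all other groups, but only narrowly above WT morphine (lowest 34.8% against highest 34.4%). The WT morphine and WT naive libraries overlapped by a small margin. The log2 difference was 1.23 for KO morphine against KO naive and 0.54 for KO morphine against WT morphine, each with an exact two-sided permutation p of 0.0286, the smallest that 4 against 4 libraries can give. It was 0.51 for WT morphine against WT naive (exact permutation p of 0.0571). Adjusted over the 12 ratio comparisons made, the smallest p was 0.114, so none passed. Pdyn relative to Penk was 0.91 higher on the log2 scale in KO morphine than in KO naive libraries (exact permutation p of 0.0286, adjusted 0.114).

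**Figure D4:**
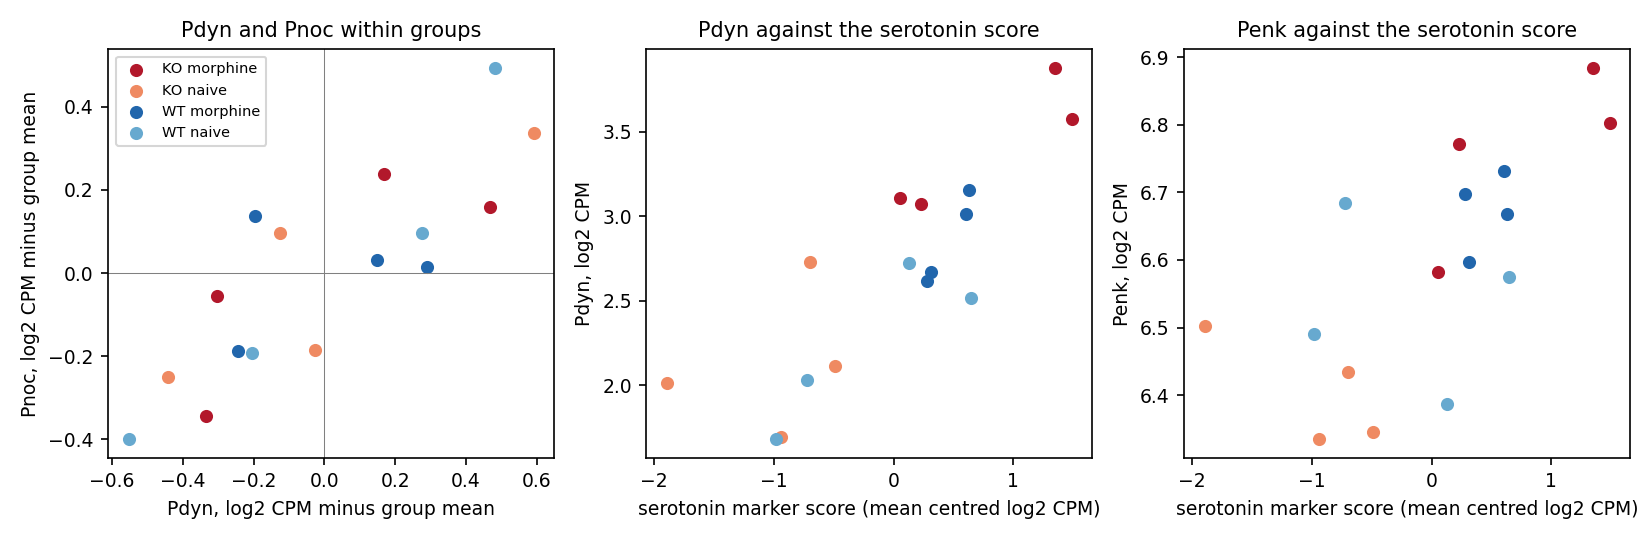
Left, Pnoc against Pdyn as log2 CPM minus the group mean, 1 point per library (r 0.836). Middle and right, log2 CPM of Pdyn and of Penk against the serotonin marker score, the mean over 10 markers of log2 CPM centred over libraries. The 2 KO morphine libraries with the highest score also have the highest Pdyn and Penk, and the other 2 have scores below those of WT morphine.

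The genes whose levels were most like each precursor within groups were named by Pearson's r over the 16 libraries among 12790 genes, as a description. For Penk they were the adhesion molecule Chl1 (r 0.916), Nudt10 (0.883) and Zcchc18 (0.882). For Pdyn they were Ddah1 (0.910), which breaks down methylarginines, the pterin dehydratase Pcbd1 (0.900) and Bex3 (0.894). For Pnoc they were cortactin, Cttn (0.919), the kinase gene Mast2 (0.899) and Pcbd1 (0.896), which thus appears for both Pdyn and Pnoc. For Pomc they were Rbm20 (0.805), Cd9 (0.790) and Rrs1 (0.788), at lower r than for the other 3. These points share the make-up of each dissected pool and the depth of each library.

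None of the 4 receptors for these peptides passed edgeR's test for morphine with either genotype label, nor did any by DESeq2 or limma-voom. At an unadjusted p under 0.05, 1 passed with the KO label (Oprl1) and 0 with the WT label. Of the 18111 genes tested, 4612 did so with the KO label and 3637 with the WT label. Oprk1, the kappa receptor that dynorphins act on, had 28.4 ± 3.75 CPM in KO morphine and 26.8 ± 3.84 CPM in KO naive libraries, and 22.9 ± 0.97 CPM in WT morphine and 19.9 ± 2.34 CPM in WT naive libraries (SD, n = 4 each). Averaged over treatments Oprk1 was higher with the KO label, by 0.37 ± 0.08 on the log2 scale (adjusted p of 0.0169, edgeR). It was the 1 receptor of 4 that passed in that comparison, where 1.53% of all genes passed. Where Oprk1 lies relative to Rgs20 was not examined here, and the cause of this difference was not tested. Oprm1, the mu receptor that morphine acts on, differed by -0.04 ± 0.09 between KO morphine and KO naive libraries and by 0.00 ± 0.09 between WT morphine and WT naive libraries. Oprd1, the delta receptor, differed by -0.10 ± 0.16 and 0.18 ± 0.16 in these comparisons. Oprl1, the nociceptin receptor, differed by 0.09 ± 0.04 and 0.06 ± 0.04. Per kilobase Oprl1 was the highest of the 4, at 33.5 to 37.1 on group average, and Oprm1 was at 1.39 to 1.45.

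Genes for enzymes that cut and finish the precursors were read next. In KO morphine against KO naive libraries 5 of 12 were higher and 1 was lower, where 11.5% of all genes passed, with a median log2 fold change of 0.15 against 0.00 over all genes tested. Pcsk1, the convertase that makes the first cuts at basic pairs, rose by 0.66 ± 0.12 (adjusted p of 0.00351, edgeR). Pcsk5 rose by 0.55 ± 0.12, Ctsl, a cathepsin that also cleaves proenkephalin, by 0.26 ± 0.05, and Scg5, the chaperone of the convertase Pcsk2, by 0.18 ± 0.04. Qpct, a glutaminyl cyclase, rose by 0.31 ± 0.09, but no longer passed when any of 6 of the 8 libraries was left out (adjusted p up to 0.109, edgeR). Cpd, a carboxypeptidase that trims basic residues, fell by 0.21 ± 0.04. Pcsk2 itself differed by 0.11 ± 0.06 and Cpe, the main trimming enzyme of neurons, by 0.04 ± 0.06. With the serotonin score in the fit none of the 12 passed, but sizes differed among them. Cpd was then at -0.18 ± 0.06 and Scg5 at 0.22 ± 0.06 (adjusted p of 0.128 and 0.0544, edgeR), close to their values without the score. Pcsk1 was at 0.34 ± 0.15, Pcsk5 at 0.15 ± 0.14, Ctsl at 0.09 ± 0.06 and Qpct at 0.03 ± 0.10. In WT morphine against WT naive libraries 1 of 12 passed, again Pcsk1, at 0.45 ± 0.12 (adjusted p of 0.0438, edgeR). That call was lost without any of 6 of the 8 libraries, at an adjusted p of up to 0.143. The interaction for Pcsk1 was 0.21 ± 0.17 (adjusted p of 0.640, edgeR).

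Of 9 genes for granins and other proteins of dense core vesicles, in which neuropeptides are stored, 3 rose in KO morphine against KO naive libraries and 0 fell (median 0.14), where 11.5% of all genes passed. Secretogranin II, Scg2, rose by 0.52 ± 0.11 and chromogranin B, Chgb, by 0.42 ± 0.10. Ptprn2 rose by 0.14 ± 0.04, and lost its call without any of 4 of the 8 libraries. With the serotonin score in the fit, 0 of the 9 passed in edgeR, and Scg2 was at 0.13 ± 0.09, Chgb at 0.04 ± 0.07 and Ptprn2 at 0.05 ± 0.06. In WT morphine against WT naive libraries 0 of the 9 passed by edgeR, DESeq2 or limma-voom. There 3 of the 9 had an unadjusted p under 0.05, as did 3637 of the 18111 genes tested. In that comparison Scg2 differed by 0.25 ± 0.10 and Chgb by 0.20 ± 0.09. Of 12 peptide-degrading enzymes 1 passed in KO morphine against KO naive libraries, a share below the 11.5% over all genes. Ace, which cleaves enkephalin-type peptides, rose by 0.26 ± 0.07 there, a call lost without any of 4 of the 8 libraries. With the serotonin score in the fit Ace was at 0.46 ± 0.08 and passed (adjusted p of 0.0175, edgeR). Mme, neprilysin, differed by 0.01 ± 0.06 in the KO comparison without the score and by 0.10 ± 0.06 in the WT comparison. Ide, a protease best known for cutting insulin, was higher with the KO label. The difference was 0.85 ± 0.06 among morphine libraries and 1.07 ± 0.06 among naive libraries, and its call held under every alternative run. Whether genes next to Ide differed likewise was not read here, and the cause was not tested.

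Of 34 other neuropeptide precursor genes, 25 could be tested. In KO morphine against KO naive libraries 4 of 25 were higher and 0 lower, where 11.5% of all genes passed in either direction. These were Sst by 0.36 ± 0.10, Npw by 0.87 ± 0.25, Vip by 1.11 ± 0.31 and Npy by 0.59 ± 0.18. Each lost its call when any 1 of several libraries was left out (4 of 8 for Npw, 5 for Sst and for Vip, 7 for Npy). In WT morphine against WT naive libraries 2 of 25 were higher, where 4.41% of all genes passed. Npw was at 0.91 ± 0.24 and Nts at 0.37 ± 0.10, and each lost its call without any of 7 of the 8 libraries. The median over the 25 was 0.29 in the KO and 0.07 in the WT comparison, against 0.00 and -0.01 over all genes tested.

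Factors that bind the CRE and AP-1 sites through which Penk and Pdyn are known to respond to activity were also read. Fosb rose by 1.54 ± 0.19 in KO morphine against KO naive libraries and by 1.40 ± 0.18 in WT morphine against WT naive libraries. Crem rose by 0.32 ± 0.06 and 0.35 ± 0.06 in these comparisons, and Fosl2 by 0.86 ± 0.20 and 1.25 ± 0.19. In all, 3 of 14 rose and 1 fell in each comparison, where 11.5% of all genes passed in KO and 4.41% in WT. Kcnip3, a calcium sensor known as a repressor of prodynorphin transcription, fell by 0.23 ± 0.06 in KO morphine libraries (adjusted p of 0.0240, edgeR), and differed by -0.18 ± 0.06 in WT morphine libraries (adjusted p of 0.106). Its KO call was lost without any of 5 of the 8 libraries, at an adjusted p of up to 0.0721. Junb fell by 0.74 ± 0.17 in WT morphine libraries, a call lost without any of 5 of the 8. The Fosl2 call in KO was lost without KO naive library 2 (adjusted p of 0.0501). With the serotonin score in the fit, the KO calls of Fosl2 (1.12 ± 0.31, adjusted p of 0.0811, edgeR) and Kcnip3 (-0.11 ± 0.09) and the WT call of Junb (-0.60 ± 0.19) were lost. Creb1 differed by -0.05 ± 0.05 and 0.11 ± 0.05. Fosb and Crem passed in both genotypes under every alternative run, the serotonin score included.

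**Figure D5:**
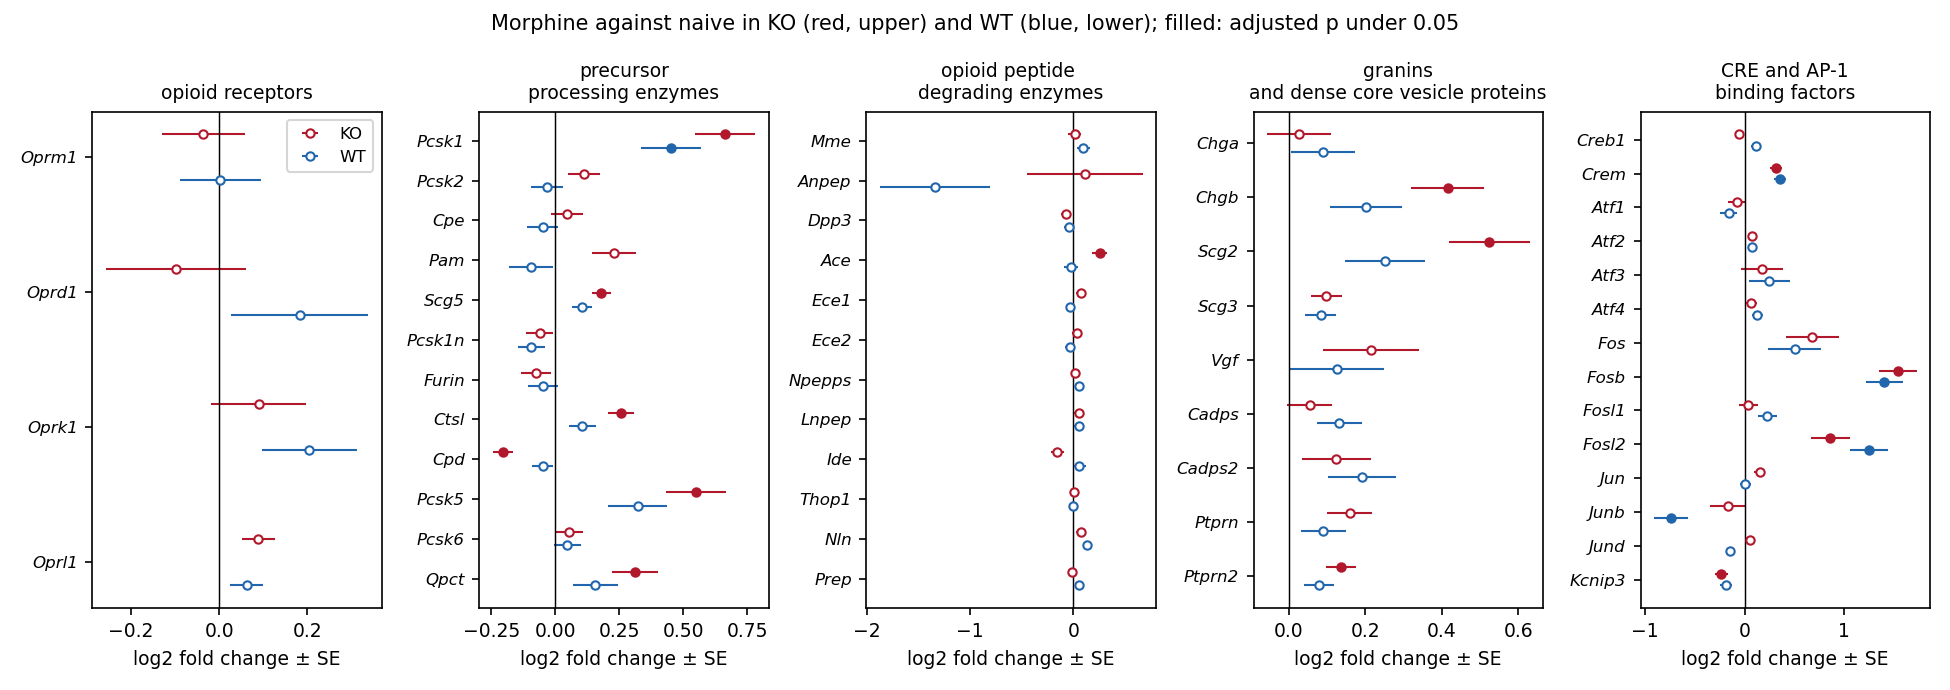
Log2 fold change ± SE of morphine against naive libraries for opioid receptors, processing enzymes, degrading enzymes, dense core vesicle genes and CRE and AP-1 binding factors, in KO (red, upper) and WT (blue, lower). Filled points passed at an adjusted p under 0.05; no receptor is filled, and Fosb is filled in both.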

How the data were processed

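Whole-number read counts per gene were deposited for 16 polyA RNA libraries. The kit was Illumina's TruSeq v2 on TRIzol RNA, per the labels. The submitters' processing notes name HTSeq, limma and mm10. Which aligner, gene annotation and strand option were used is not given in the sources used here. Rows of the files that tally reads outside genes (38.2 to 40.6% of each total) were left out. Symbols, exon lengths and sequences were taken from the GENCODE M21 annotation of GRCm38 (mm10), which matched 37607 of 38924 identifiers. After filterByExpr (minimum count 10) and TMM scaling, all 16 libraries entered 1 fit in edgeR 4.0.16 (R 4.3.3, quasi-likelihood, robust), Benjamini-Hochberg over 18111 genes, threshold 0.05. The fit was tested on simulated data. CPM are TMM-scaled, and CPM per kilobase divide by the union of exons. Single ratios were tested by exact permutation, and correlations by 100000 permutations within groups. Scores are means of centred log2 CPM over marker lists.

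The members and gene lists were chosen with earlier results of these data known. Named genes are the 4 precursors, 4 receptors, members of each other list that passed or were among the 4 with the smallest p, and the 3 genes most like each precursor; the text takes a part of these. Pcsk2, Cpe, Mme in KO and Creb1 were named outside this rule, for their known roles, after their values were seen. Alternatives were DESeq2's size factors and Wald test (DESeq2 1.42.0), limma-voom (limma 3.58.1), no filter, a stricter filter (1 CPM in 8 libraries), only the groups compared, a replicate block, serotonin or meningeal score as covariate, thinning to 19.1 M, and leaving out each library. Leaving out the 2 libraries with the highest meningeal scores was added after the data were seen. Deviations of replicates with the same number were only weakly correlated (-0.16 to 0.15). With 4 libraries a group this does not settle whether the numbers pair the libraries, and the main fit treats them as unpaired. Promoter windows were not used here. Of the 12 core windows 6 are printed, and some markers are not reported here.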

Additional observations from a re-analysis of the deposited data

Results flagged for a closer look

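Pomc in KO naive library 1 stood apart, at 1.10 CPM from 61 counts, where the other 3 KO naive libraries held 1.50 to 1.58 CPM. Its gap was 0.856 of the group's range, above Dixon's 95% critical value for 4 values. Chance flags about 1 group in 20, and 16 groups (4 genes in 4 groups) were looked at. Leaving out single libraries moved the Pomc log2 difference of KO morphine against KO naive between -0.20 and -0.03, and none of these passed.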

How the results depend on the processing

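The number of precursor genes called for morphine in KO libraries and averaged over genotypes stayed at 2 under every alternative but one. With the serotonin score as a covariate it was 0 in KO libraries (Penk 0.34, Pdyn 0.37) and 0 averaged (Penk 0.23, Pdyn 0.33), and the cause was not tested. Leaving out single libraries kept the KO log2 difference at 0.32 to 0.42 for Penk and 1.08 to 1.49 for Pdyn, with adjusted p of at most 0.0126 and 0.0356 (edgeR), and the other 5 comparisons kept their counts under all alternatives. Without the 2 libraries of highest meningeal score (WT naive 2, KO morphine 3) the KO values were 0.41 for Penk and 1.32 for Pdyn, and both calls held. With a replicate block they were 0.36 (adjusted p of 0.00789) and 1.25 (adjusted p of 0.0144), and the block changed no call of a precursor. Best matches by number were 0 to 2 of 4 libraries.

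Among the other genes named, Sst in KO libraries turned to -0.021 with the serotonin score. Calls over all genes depended more on the setting. In WT they were 798, but 1242 by DESeq2, 410 in the 2 groups alone, 512 with the replicate block and 355 with the serotonin score. In KO they were 2082, but 304 with that score. Naive genotype calls were 164, but 376 by DESeq2, 89 with the replicate block, 96 after thinning and 104 without the meningeal pair. Genotype calls under morphine were 96, but 202 by DESeq2 and 236 without that pair. Interaction calls were 0, but 107 by DESeq2, 64 without that pair and at most 56 without 1 library. Averaged, 3089 became 486 with the serotonin score, and 277 became 434 by DESeq2. Depth limits Pomc most, at 22 to 92 counts a library.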
